A study of Homo sapiens with 6 samples.

Results

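The 36 genes described here act in the synthesis of cholesterol and fatty acids, in its transcriptional control and in the transport of sterols out of lysosomes and cells. They were chosen by gene symbol, with earlier results of these data known. A row of the expression table counted as a member when its name, split at commas, held a listed or older symbol. All 36 were found among 24108 rows, each in 1 row, and all carried the listed symbol. They comprised 17 genes of the sterol arm, 8 of the fatty acid arm, 5 regulators of the sterol regulatory element-binding proteins (SREBPs), STARD4 and LPIN1, and 4 genes of sterol efflux, lysosomal egress and liver X receptor (LXR) response. A total of 35 reached a mean of 1 FPKM over the 6 samples and were tested together with all other rows at that level, 11777 in all. ABCG1 did not and is given by its values.

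The samples were RNA-seq libraries of MDA-MB-231, a cell line derived from a triple-negative breast carcinoma, which the labels place in the Basal subtype. The 3 shControl samples carried an LKO hairpin against luciferase, and the 3 shZnf148 samples carried a hairpin against ZNF148, which encodes a zinc finger transcription factor. All 6 were transduced with lentivirus for 48 h and selected for 24 h in 0.5 µg/ml puromycin. A single hairpin was used, so loss of ZNF148 and other effects of that hairpin cannot be told apart, and as the labels do not say that replicates were separate cultures, the p-values measure the spread between these samples, which may be technical. In bulk RNA, fewer cells expressing a gene and less RNA per cell cannot be told apart.

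Levels are given in FPKM, in which the fragments assigned to a gene are divided by its transcript length and by the size of the library, so levels of different genes can be compared per length. Fold changes are differences of log2(FPKM + 1), shZnf148 minus shControl, and understate the change of low genes. A gene passed at an adjusted p under 0.05 (limma across all 11777 rows, Benjamini-Hochberg), and was called when it also changed by more than 1.5-fold, which is 0.585 on the log2 scale. An exact two-sided permutation test of 3 samples against 3 cannot go below p = 0.1, so it cannot pass a threshold of 0.05 for any gene here.

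Cells make cholesterol from acetyl-CoA through mevalonate, squalene and lanosterol, and make fatty acids from the same precursor through malonyl-CoA. SREBPs are membrane-bound transcription factors held in the endoplasmic reticulum by SCAP and the INSIG proteins when sterols are plentiful. When sterols fall, SCAP carries the SREBPs to the Golgi, where they are cut, and the released part enters the nucleus and switches on the genes of both pathways and INSIG1 itself. LXRs respond to oxidised sterols and switch on genes of cholesterol export such as ABCA1.

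ZNF148 was lower in the samples with its hairpin, at 3.72, 4.36 and 4.30 FPKM in shControl replicates 1, 2 and 3 and 0.914, 0.282 and 0.834 FPKM in shZnf148 replicates 1, 2 and 3 (log2 fold change -1.63, limma adjusted p = 0.0099). Without shControl replicate 1 or 3 that adjusted p was 0.0603 or 0.0568. Of the line's markers, the estrogen receptor gene ESR1 was listed at 0 in all 6 samples, and the mesenchymal gene VIM was at 1708 to 1842 FPKM in shControl and 1507 to 1528 FPKM in shZnf148 samples (log2 fold change -0.22, limma adjusted p = 0.0563). The mesenchymal marker CD44 and the keratin gene KRT18 passed lower, with log2 fold changes of -0.46 (limma adjusted p = 0.0185) and -0.36 (limma adjusted p = 0.0285), and their part in the results below was not tested. Neither passed without shControl replicate 1, 2 or 3, nor KRT18 without shZnf148 replicate 1 (0.0511 to 0.109). Other markers of the same lists did not pass, with log2 fold changes of -0.23 for FN1 and -0.01 for ZEB1 (mesenchymal). The epithelial KRT8 was at 0.14 and EPCAM at -0.22, while CDH1, KRT5 and KRT14 were too low to be tested. The adipocyte genes ADIPOQ, LEP and FABP4, which mark a cell type rich in lipid synthesis, were listed at 0, with PLIN1 at 0.155 to 0.654 FPKM. ERBB2, in a row shared with MIR4728, was at 20.1, 126 and 20.1 FPKM in shControl and 24.8, 125 and 21.9 FPKM in shZnf148 replicates 1, 2 and 3, so replicate 2 stood apart in both groups, and the level of the receptor gene alone cannot be read from that row. The relative read depth of the libraries, read from the steps between low values, ranged from 0.806 to 1.13 of that of shControl replicate 1. The absolute depth is unknown.

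INSIG1 and NPC1 fell most firmly with the ZNF148 hairpin, INSIG1 to 22.3% and NPC1 to 50.5% of its control mean. Of the 35 tested members, 5 were called lower (INSIG1, NPC1, DHCR7, FADS1 and SCD), which is 14.3%, while 3.66% of all tested rows were called lower. No member was called higher or passed higher, against 1.83% and 5.46% of all rows, and 1 member (ACAT2) had an unadjusted limma p under 0.05 in that direction. At the adjusted p alone 13 members (37.1%) passed lower, compared with 8.13% of all rows. The additional 8 were SREBF1, SREBF2, MVD, FDFT1, LSS, ACLY, ELOVL6 and ABCA1. As the members were chosen with earlier results of these data known, these shares describe the list and are no test of it.

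The median log2 fold change of the 35 members was -0.25, and that of all tested rows was 0.0061. The members' changes ran from -2.00 for INSIG1 to 0.40 for TM7SF2, and 27 of the 35 (77.1%) were below 0, compared with 49.1% of all rows. In 18 members (51.4%) all 3 shZnf148 values lay below all 3 shControl values, which held for 21.0% of all rows. The opposite order was seen in 2 members, EBP and LPIN1 (5.71%), and in 20.0% of all rows.

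These counts depended on the control samples. Without shControl replicate 1, and likewise without shControl replicate 3, the called members were INSIG1 and NPC1 (2 in each case, both also the only ones to pass), while the calls of lower rows in the whole table dropped from 431 to 26 and 40. Without shControl replicate 2, 4 members were called lower and 5 passed. Leaving out any 1 of the shZnf148 samples left 6 called and 10 to 13 passed. INSIG1 and NPC1 were called in each of these 6 fits.

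**Figure D1:**
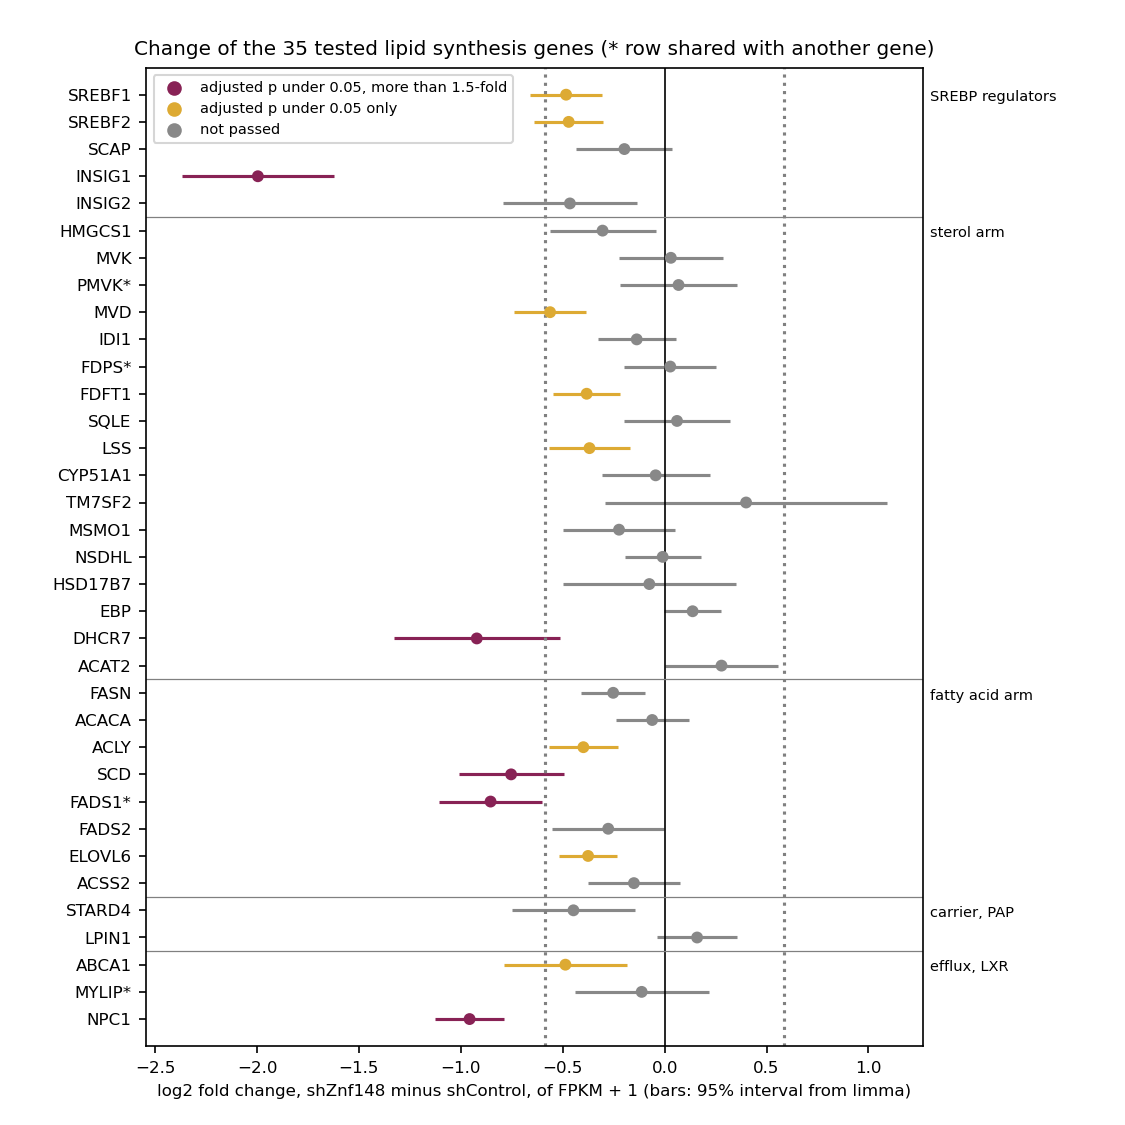
Log2 fold change (x axis, shZnf148 minus shControl, of FPKM + 1) of the 35 tested members (y axis), with 95% intervals from limma as bars and dotted lines at 1.5-fold. The 5 called members lie between -2.00 and -0.75. An adjusted p under 0.05 forces an interval clear of 0, as both come from the same fit. Some members that did not pass, such as HMGCS1, also have such an interval.

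The start regions of the members were read from RefSeq (assembly GRCh38.p14) as windows from 250 bases before to 50 bases after an annotated transcript start, and 31 of the 36 had an entry. The windows of 4 of the 5 called members are shown, of which that of NPC1 has no capitals. The window of FADS1, the other called member, holds no CCAAT box and is not shown. That of SREBF2 is added, the single member of the 31 with a match to the letters TCACNCCAC. Each is written 5′ to 3′ on the strand of its gene, with the box CCAAT, or ATTGG where it lies on the other strand, in capitals. In SREBF2 the capitals also mark a match to TCACNCCAC, a form of the sterol regulatory element. DHCR7 has a second window with no CCAAT box, which is not shown.
INSIG1, chr7:155297628-155297927, plus strand: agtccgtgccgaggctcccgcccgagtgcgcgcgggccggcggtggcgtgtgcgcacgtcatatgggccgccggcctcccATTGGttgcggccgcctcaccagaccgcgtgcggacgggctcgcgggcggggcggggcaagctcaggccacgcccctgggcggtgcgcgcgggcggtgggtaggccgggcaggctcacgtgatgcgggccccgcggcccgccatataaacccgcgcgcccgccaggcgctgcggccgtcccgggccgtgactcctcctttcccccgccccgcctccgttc
SCD, chr10:100346983-100347282, plus strand: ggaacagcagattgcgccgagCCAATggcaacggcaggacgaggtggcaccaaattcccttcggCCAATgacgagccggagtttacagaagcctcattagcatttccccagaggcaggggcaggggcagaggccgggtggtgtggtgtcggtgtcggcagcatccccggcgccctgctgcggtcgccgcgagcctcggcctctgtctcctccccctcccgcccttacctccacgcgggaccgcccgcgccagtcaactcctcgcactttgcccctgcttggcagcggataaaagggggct
DHCR7, chr11:71448344-71448643, minus strand: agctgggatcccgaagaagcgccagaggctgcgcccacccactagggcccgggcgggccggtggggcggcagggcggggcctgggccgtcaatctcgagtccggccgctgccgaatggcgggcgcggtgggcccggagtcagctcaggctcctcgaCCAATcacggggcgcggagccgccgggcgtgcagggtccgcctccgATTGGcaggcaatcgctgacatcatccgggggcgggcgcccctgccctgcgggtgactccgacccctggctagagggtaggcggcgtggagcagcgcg
NPC1, chr18:23586457-23586756, minus strand: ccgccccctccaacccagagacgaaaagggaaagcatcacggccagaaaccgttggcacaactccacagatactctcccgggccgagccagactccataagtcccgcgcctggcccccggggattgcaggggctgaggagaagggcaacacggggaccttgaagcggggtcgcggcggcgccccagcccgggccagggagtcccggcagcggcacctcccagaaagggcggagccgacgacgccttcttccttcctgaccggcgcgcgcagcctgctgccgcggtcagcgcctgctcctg
SREBF2, chr22:41832855-41833154, plus strand: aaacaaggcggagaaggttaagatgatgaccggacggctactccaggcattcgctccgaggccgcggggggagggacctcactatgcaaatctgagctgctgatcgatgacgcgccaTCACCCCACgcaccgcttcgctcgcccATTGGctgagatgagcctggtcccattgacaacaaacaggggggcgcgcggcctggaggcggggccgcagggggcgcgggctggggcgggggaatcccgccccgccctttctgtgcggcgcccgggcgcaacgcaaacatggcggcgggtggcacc

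The CCAAT box, which binds the factor NF-Y, was found on either strand in 21 of the 31 members (67.7%) and in 39.7% of the 27305 genes in the table. The GC box GGGCGG, bound by Sp-family factors, was in 30 members (96.8%) and in 48.3% of genes. A GC-rich word of the type that ZNF148 binds, GGGAGGGG, which can overlap a GC box, was in 5 members (16.1%) and in 16.7% of genes. TCACNCCAC was in SREBF2 alone (3.23% of members, 1.39% of genes). Other forms of the sterol element were not searched for, so members without this match may still hold one. Of the 12 members with an entry that passed lower, 7 had a CCAAT box, and of the other 19 members 14 had it. The 27305 genes were not limited to those expressed here, as nearly all members were, and shares among expressed genes were not computed. A gene counted when any of its windows held the letters, and a match says nothing of binding.

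Among the SREBP regulators all 5 genes had a log2 fold change below 0, 3 passed and 1, INSIG1, was called (median -0.47). The shares of all rows were 49.1% below 0, 8.13% passed lower and 3.66% called lower. INSIG1, which retains SCAP in the endoplasmic reticulum and is itself an SREBP target, was at 28.0, 22.8 and 23.6 FPKM in shControl replicates 1 to 3 and at 5.72, 4.19 and 6.67 FPKM in shZnf148 replicates 1 to 3. The lowest control value was thus more than 3 times the highest shZnf148 value. Its mean fell from 24.8 ± 2.80 to 5.53 ± 1.25 FPKM (SD, n = 3), a log2 fold change of -2.00 with a 95% interval from -2.37 to -1.62 (limma adjusted p = 0.00507). It ranked 14 of the 11777 rows by p, and 0.382% of the rows had a change as low or lower. With any 1 sample left out the change stayed between -2.12 and -1.84 and the adjusted p at most 0.0341. INSIG1 lies at chr7:155297776-155310235 (GRCh38, GENCODE 44, plus strand), with no exon of another annotated gene over its own.

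Its relative INSIG2, a second retention protein, was at 28.0, 24.2 and 27.4 FPKM in shControl and 19.2, 15.5 and 22.7 FPKM in shZnf148 samples. The groups did not overlap, but INSIG2 did not pass (log2 fold change -0.46, 95% interval from -0.79 to -0.14, limma adjusted p = 0.0679), except without shZnf148 replicate 3, where its adjusted p was 0.0423. In FPKM the 2 INSIG genes were at nearly equal levels in the controls, with an INSIG1 to INSIG2 ratio of 0.934 ± 0.0698, and the ratio was 0.287 ± 0.0149 in shZnf148 samples (SD, n = 3). All 3 ratios of one group lay apart from those of the other, and the 95% intervals of the fold changes of INSIG1 and INSIG2 did not overlap. The difference between their changes was not tested.

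SREBF1, which encodes the SREBP form tied mainly to fatty acid genes, was at 22.4, 21.2 and 22.1 FPKM in shControl and 16.5, 15.5 and 14.3 FPKM in shZnf148 samples. SREBF2, whose product acts mainly on cholesterol genes, was at 26.9, 28.1 and 25.5 FPKM and at 19.6, 19.7 and 17.9 FPKM. In both genes every shZnf148 value was below every control value, with means of 70.3% and 71.1% of the control. SREBF1 passed with a log2 fold change of -0.48 (standard error 0.07, limma adjusted p = 0.0173), and SREBF2 with one of -0.47 (standard error 0.07, limma adjusted p = 0.0172), both short of 1.5-fold. Without shControl replicate 1, 2 or 3 neither passed, with adjusted p-values from 0.0531 to 0.0844. The SREBF1 to SREBF2 ratio was 0.819 ± 0.0558 in shControl and 0.807 ± 0.0291 in shZnf148 samples. Exons of RAI1 overlap SREBF1 on the opposite strand, strand use in the libraries is not given in the sources used here, and RAI1 had a log2 fold change of 0.17 (limma adjusted p = 0.157).

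SCAP, the escort and sterol sensor of the SREBPs, was at 21.0, 21.7 and 21.3 FPKM in shControl and 18.5, 21.0 and 16.2 FPKM in shZnf148 samples. Replicate 2 of the shZnf148 group overlapped the control range, and SCAP did not pass (log2 fold change -0.20, 95% interval from -0.43 to 0.04, limma adjusted p = 0.207).

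**Figure D2:**
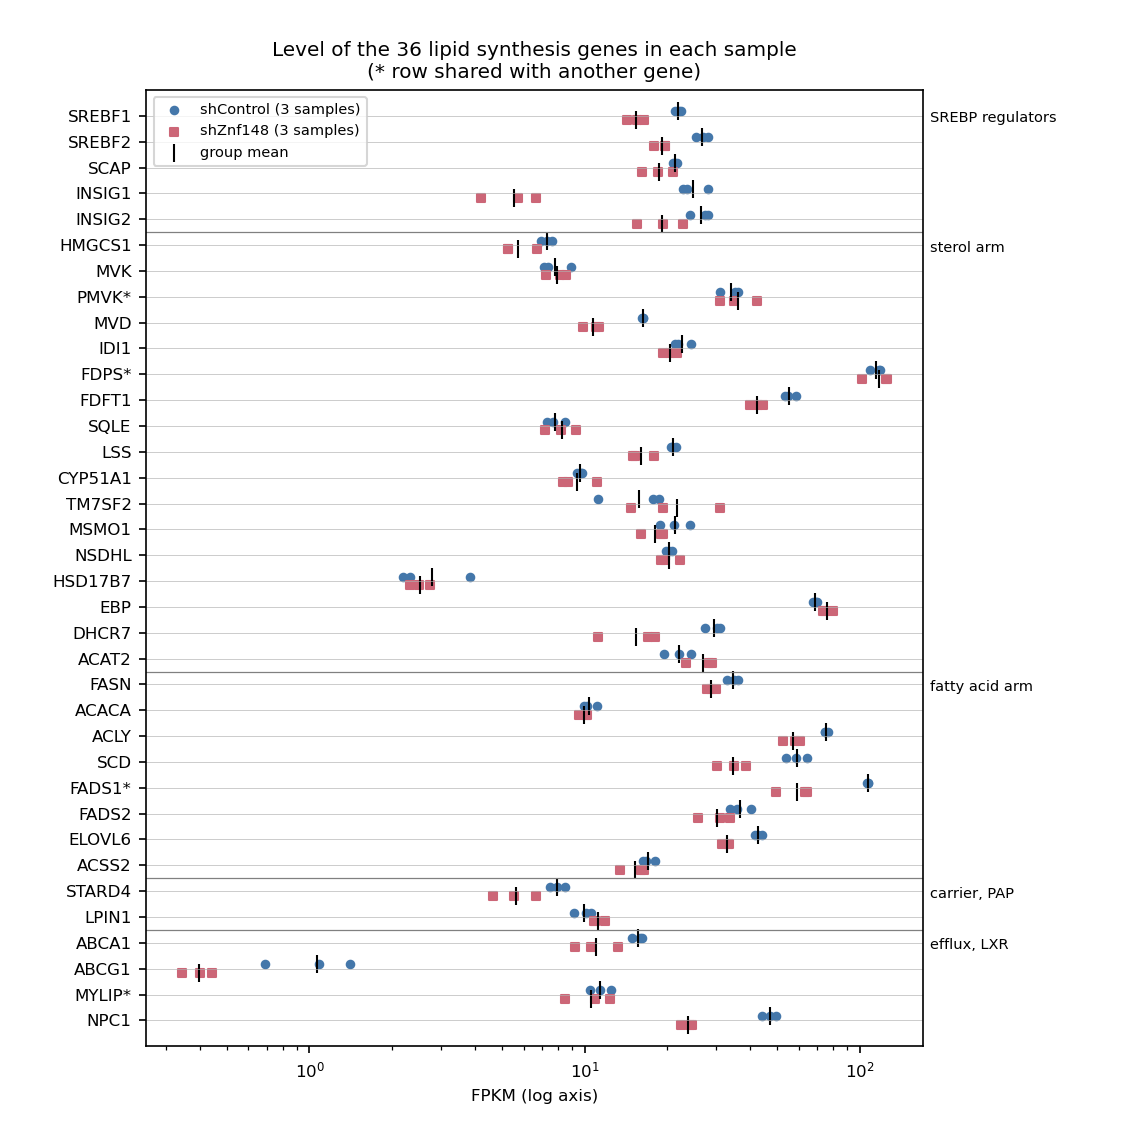
FPKM of the 36 members (x axis, log scale) in each of the 3 shControl samples (circles) and 3 shZnf148 samples (squares), with group means as vertical marks and a star for rows shared with another gene. INSIG1 shows the widest gap of the tested members, from 24.8 to 5.53 FPKM in the means, while most genes of the sterol arm overlap between the groups.

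The sterol arm was split. Of its 17 genes, 4 passed lower (MVD, FDFT1, LSS and DHCR7), 13 did not pass, and 10 of the 17 changes were below 0 (median -0.04). Over all rows 8.13% passed lower and 49.1% had a change below 0. One step near the end of the pathway carried the only call of the 17 genes, while 3.66% of all rows were called lower. In order of the pathway, the values of single genes were as follows.

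ACAT2, which joins acetyl-CoA units to acetoacetyl-CoA, was at 19.5, 21.99 and 24.5 FPKM in shControl and 29.1, 23.3 and 28.3 FPKM in shZnf148 samples. The groups overlapped through shControl replicate 3 and shZnf148 replicate 2 (log2 fold change 0.28, limma adjusted p = 0.147). SOD2, on the opposite strand with exons over those of ACAT2, had a mean of 59.8 FPKM in shControl and 32.8 FPKM in shZnf148 samples and was itself called lower. HMGCS1, the synthase that makes HMG-CoA, was at 6.94, 7.62 and 7.32 FPKM and at 5.26, 5.25 and 6.73 FPKM. Its groups did not overlap, and it did not pass (log2 fold change -0.30, 95% interval from -0.56 to -0.04, limma adjusted p = 0.105).

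The kinases of the mevalonate steps did not pass. MVK was at 7.80 ± 0.961 FPKM in shControl and 7.97 ± 0.642 FPKM in shZnf148 samples, and PMVK, in a row shared with PBXIP1, at 34.1 ± 2.58 and 36.01 ± 5.68 FPKM (SD, n = 3). Their 95% intervals, from -0.22 to 0.29 and from -0.22 to 0.36, held no change of 1.5-fold.

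MVD, the decarboxylase that completes isopentenyl diphosphate, was different. It was at 16.3, 16.4 and 16.2 FPKM in shControl and 11.3, 11.0 and 9.89 FPKM in shZnf148 samples. The controls agreed to within an SD of 0.0838 FPKM, and all shZnf148 values were well below them. MVD passed with a log2 fold change of -0.56 (95% interval from -0.74 to -0.39, limma adjusted p = 0.0120), just short of the 0.585 that a call needs. It did not pass without shControl replicate 1 (adjusted p = 0.0710) or 3 (0.0657), and was called lower without shZnf148 replicate 1 (log2 fold change -0.60, adjusted p = 0.0373).

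IDI1, the isomerase of the next step, was at 22.6 ± 1.64 and 20.4 ± 1.25 FPKM, with overlapping groups (log2 fold change -0.14, limma adjusted p = 0.277). FDPS, which makes farnesyl diphosphate and shares its row with RUSC1, was the most abundant member in FPKM, at 115 ± 5.37 in shControl and 118 ± 13.4 in shZnf148 samples. Its 95% interval ran from -0.20 to 0.25.

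FDFT1, squalene synthase, which commits farnesyl units to sterols, was at 58.4, 54.7 and 53.3 FPKM in shControl and 44.3, 39.9 and 42.7 FPKM in shZnf148 samples. The groups lay apart, and FDFT1 passed with a log2 fold change of -0.38 (standard error 0.07, limma adjusted p = 0.0225). It did not pass without shControl replicate 1, 2 or 3 or shZnf148 replicate 1, where the adjusted p was 0.0525 to 0.0964. SQLE, the squalene epoxidase that follows, was at 7.32, 7.68 and 8.49 FPKM and at 7.20, 9.33 and 8.20 FPKM. Here the groups overlapped fully (log2 fold change 0.06, 95% interval from -0.20 to 0.32).

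LSS, which folds the epoxide into lanosterol, was at 20.9, 21.4 and 20.6 FPKM in shControl and 17.9, 15.0 and 15.3 FPKM in shZnf148 samples. It passed with a log2 fold change of -0.37 (limma adjusted p = 0.0366). It no longer passed without any 1 of the samples except shZnf148 replicate 1, with adjusted p-values from 0.0516 to 0.123, and with no filter on low values (0.0504).

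The lanosterol-trimming enzymes did not pass. CYP51A1, the demethylase, was at 9.62 ± 0.191 FPKM in shControl and 9.36 ± 1.49 FPKM in shZnf148 samples, MSMO1 at 21.3 ± 2.70 and 18.1 ± 1.84, and NSDHL at 20.3 ± 0.525 and 20.2 ± 1.73 (SD, n = 3). HSD17B7, the ketoreductase, was the lowest tested member at 2.78 ± 0.916 and 2.53 ± 0.210 FPKM. The reductase TM7SF2 spread widely, at 18.6, 11.2 and 17.7 FPKM in shControl and 19.3, 30.9 and 14.8 FPKM in shZnf148 samples. Its interval from -0.29 to 1.09 on the log2 scale was the widest of the tested members and held both no change and a 1.5-fold rise. Exons of AKAP9 overlap CYP51A1 on the opposite strand (log2 fold change of AKAP9 0.23, limma adjusted p = 0.126).

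EBP, the isomerase that moves the sterol ring double bond, was at 69.3, 67.6 and 69.8 FPKM in shControl and 79.8, 73.4 and 74.6 FPKM in shZnf148 samples. It was 1 of the 2 members with every shZnf148 value above every control value, and it did not pass (log2 fold change 0.14, limma adjusted p = 0.153). DHCR7, the reductase that turns 7-dehydrocholesterol into cholesterol, was at 30.3, 30.9 and 27.4 FPKM and at 17.98, 11.2 and 17.1 FPKM. All shZnf148 values were below the controls, replicate 2 the lowest.

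DHCR7 was called with a log2 fold change of -0.92 (95% interval from -1.33 to -0.52, limma adjusted p = 0.0239), a mean of 52.1% of the control. It was not called without shControl replicate 1, 2 or 3, where the adjusted p was 0.0964, 0.0738 and 0.0827. The DHCR7 to EBP ratio was 0.429 ± 0.0332 in shControl and 0.202 ± 0.0430 in shZnf148 samples. DHCR7 lies at chr11:71428193-71452868 (minus strand), with no exon of another gene over it.

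In the fatty acid arm all 8 genes had a log2 fold change below 0 (median -0.33). SCD and FADS1, both desaturases, were called, ACLY and ELOVL6 also passed, and FASN, ACACA, FADS2 and ACSS2 did not. Of all rows 3.66% were called lower, 8.13% passed lower and 49.1% had a change below 0. In 6 of the 8 every shZnf148 value was below every control value, as in 21.0% of all rows.

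ACLY, which splits citrate to give cytosolic acetyl-CoA for both pathways, was at 74.8, 75.0 and 76.9 FPKM in shControl and 60.9, 52.5 and 58.2 FPKM in shZnf148 samples. It passed with a log2 fold change of -0.40 (standard error 0.07, limma adjusted p = 0.0220), but not without shControl replicate 1, 2 or 3 (0.0665 to 0.0935). ACSS2, which makes acetyl-CoA from acetate, was at 17.05 ± 0.916 and 15.3 ± 1.65 FPKM, with overlap (log2 fold change -0.15, limma adjusted p = 0.305). ACACA, the carboxylase that makes malonyl-CoA and is the committed step, differed least in the arm, at 10.4 ± 0.580 and 9.93 ± 0.371 FPKM (95% interval from -0.24 to 0.12).

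FASN, the synthase that builds palmitate, was at 36.1, 32.8 and 35.02 FPKM in shControl and 30.0, 28.9 and 27.9 FPKM in shZnf148 samples. Every shZnf148 value was below every control value, and FASN just missed the threshold (log2 fold change -0.25, 95% interval from -0.41 to -0.10, limma adjusted p = 0.0502). It passed under 4 settings: a filter at 5 FPKM, a pseudocount of 5 FPKM, median-ratio scaling, and summing rows of 1 name.

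ELOVL6, which extends palmitate, was at 42.8, 44.05 and 41.7 FPKM in shControl and 33.6, 31.5 and 33.3 FPKM in shZnf148 samples. The groups were tight and apart, and it passed (log2 fold change -0.38, standard error 0.06, limma adjusted p = 0.0182), although not without shControl replicate 1, 2 or 3 or shZnf148 replicate 1 (0.0518 to 0.0878).

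SCD, the stearoyl-CoA desaturase that makes monounsaturated fatty acids, was at 64.4, 53.7 and 58.7 FPKM in shControl and 35.04, 30.3 and 38.5 FPKM in shZnf148 samples. No shZnf148 value came near the lowest control value. SCD was called with a log2 fold change of -0.75 (95% interval from -1.01 to -0.50, limma adjusted p = 0.0150), except without shControl replicate 1 (0.0759) or 3 (0.0689). Within samples the SCD to FASN ratio was 1.70 ± 0.0768 in shControl and 1.20 ± 0.169 in shZnf148 samples, with no overlap. SCD lies at chr10:100347233-100364826 (plus strand).

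FADS1, the delta-5 desaturase of polyunsaturated fatty acids, shares its row with FADS3, so the value belongs to both genes. The row was at 107.6, 106.9 and 106.3 FPKM in shControl and 63.2, 49.6 and 64.5 FPKM in shZnf148 samples. The controls were almost equal, and the shZnf148 samples were all far below them, replicate 2 the lowest. It was called with a log2 fold change of -0.85 (95% interval from -1.11 to -0.60, limma adjusted p = 0.0111), except without shControl replicate 1 (0.0661) or 3 (0.0583).

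FADS2, the delta-6 desaturase next to FADS1, was at 40.2, 33.8 and 35.9 FPKM in shControl and 33.8, 25.8 and 30.9 FPKM in shZnf148 samples. The groups touched without crossing, and it did not pass (log2 fold change -0.28, limma adjusted p = 0.145). The FADS1 to FADS2 ratio went from 2.93 ± 0.241 to 1.96 ± 0.112, with no overlap. FADS1 lies at chr11:61799627-61829318 (minus strand), and some of its annotated exons overlap exons of FADS2 on the plus strand, so reads there cannot be assigned without strand. Exons of FEN1 overlap FADS2 on the same strand, which limits the FADS2 values and the ratio. FEN1 was at 58.2 FPKM in shControl and 65.8 FPKM in shZnf148 means (log2 fold change 0.17, limma adjusted p = 0.202).

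STARD4, a soluble carrier that moves cholesterol between membranes, was at 8.47, 7.47 and 7.95 FPKM in shControl and 5.55, 4.64 and 6.67 FPKM in shZnf148 samples. The groups did not overlap, and it did not pass (log2 fold change -0.45, limma adjusted p = 0.0606), except without shZnf148 replicate 3 (0.0420). LPIN1, the phosphatidate phosphatase lipin that also acts on SREBP-dependent transcription, was at 10.5, 10.1 and 9.16 FPKM and at 11.9, 10.9 and 10.8 FPKM. It was the other member with all shZnf148 values above the controls, and it did not pass (log2 fold change 0.16, limma adjusted p = 0.217).

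Among the efflux, egress and LXR genes NPC1 was called lower, ABCA1 passed, MYLIP did not and ABCG1 was not tested. NPC1, which carries cholesterol out of lysosomes, was at 47.0, 49.7 and 44.3 FPKM in shControl and 24.2, 22.4 and 24.5 FPKM in shZnf148 samples. Both groups were narrow and far apart. NPC1 had a log2 fold change of -0.96 (95% interval from -1.13 to -0.79, limma adjusted p = 0.00439) and ranked 11 of 11777 rows by p. With any 1 sample left out the adjusted p was at most 0.0324. NPC1 lies at chr18:23506184-23586506 (minus strand), and exons of RMC1 overlap it on the opposite strand. RMC1, listed under the older name C18orf8, was at 17.8 and 17.3 FPKM in the group means (log2 fold change -0.04, limma adjusted p = 0.715).

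ABCA1, which exports cholesterol to apolipoproteins, was at 15.9, 16.2 and 14.8 FPKM in shControl and 9.22, 13.2 and 10.5 FPKM in shZnf148 samples. All shZnf148 values were below the controls, replicate 2 the closest. It passed at the edge of the threshold (log2 fold change -0.49, limma adjusted p = 0.0498). It no longer passed without any 1 of the samples except shZnf148 replicate 2, with adjusted p-values from 0.101 to 0.152, and under 3 settings of the filter, pseudocount and variance model. Without shZnf148 replicate 2 ABCA1 was called lower (0.0134).

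ABCG1, a second exporter and LXR target, was at 1.41, 0.688 and 1.09 FPKM in shControl and 0.401, 0.443 and 0.343 FPKM in shZnf148 samples. Its mean of 0.396 ± 0.0503 FPKM in shZnf148 samples was 37.3% of the control mean of 1.06 ± 0.361 FPKM (SD, n = 3). With no filter on low values its log2 fold change was -0.55 (limma adjusted p = 0.0608). MYLIP, the ubiquitin ligase that targets lipoprotein receptors and is induced by LXR, shares its row with MIR4639 and was at 12.4, 11.4 and 10.4 FPKM and at 8.50, 12.4 and 10.9 FPKM. The groups overlapped (log2 fold change -0.11, limma adjusted p = 0.599).

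The shZnf148 samples did not contribute alike. Replicate 2, in which ZNF148 was also lowest, had the lowest value of its group in 18 of the 36 members, replicate 3 in 12 and replicate 1 in 6. It had the highest value of its group in 12 members, replicate 1 in 13 and replicate 3 in 11. The controls were uneven too, with replicate 1 the highest of its group in 18 members, replicate 2 in 12 and replicate 3 in 6. Such counts were not made over all rows, and the part of ZNF148 level or library depth in the shZnf148 order was not tested.

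**Figure D3:**
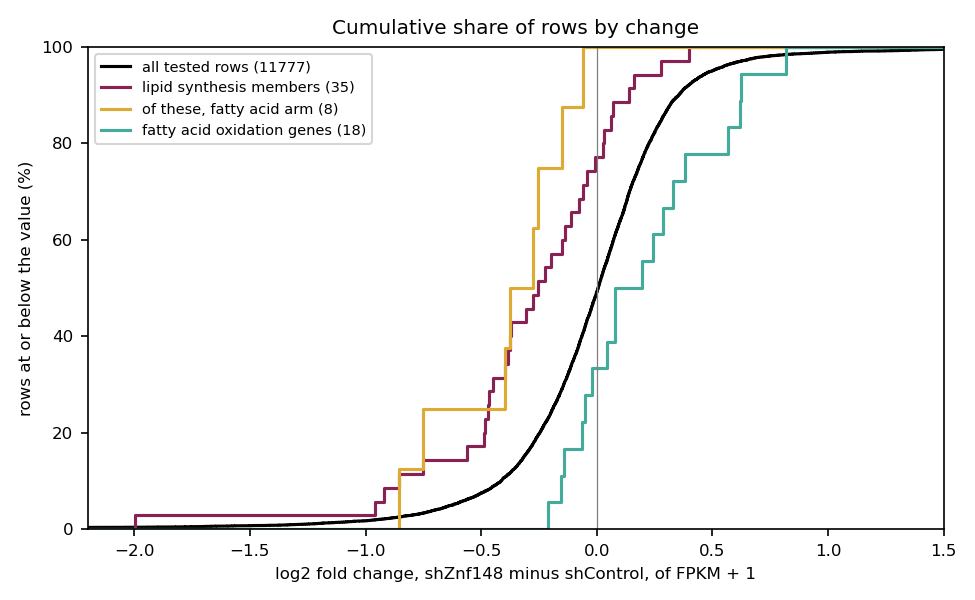
Cumulative share of rows (y axis, percent) at or below a log2 fold change (x axis, shZnf148 minus shControl, of FPKM + 1) for all tested rows, the 35 members, the 8 fatty acid arm genes among them and 18 fatty acid oxidation genes. The member curve lies to the left of that of all rows, with medians of -0.25 and 0.0061, and the fatty acid arm reaches 100% before 0.

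Other genes of these pathways, outside the 36, were read from further lists. Of 10 other SREBP processing and sterol sensing genes none passed limma in either direction (1 lower and 0 higher at an unadjusted p under 0.05). Of all rows 8.13% passed lower and 5.46% passed higher, so a list of 10 cannot show a lack of change. The lowest p-values were those of ERLIN2, which takes part in the turnover of sterol-regulated proteins (log2 fold change -0.62, limma adjusted p = 0.0740), and MBTPS2, a protease that cuts the SREBPs (-0.16, limma adjusted p = 0.265).

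Of 20 tested genes of other fatty acid synthesis, elongation and activation steps, 4 were called lower and 1 higher (median -0.19), against 3.66% and 1.83% of all rows. One of the 4 is FADS3, in the row it shares with FADS1. SCD5, a second stearoyl-CoA desaturase, was at 11.2 ± 0.780 FPKM in shControl and 6.52 ± 0.399 FPKM in shZnf148 samples (log2 fold change -0.70, limma adjusted p = 0.0111). MID1IP1, which promotes ACACA polymerisation, had a log2 fold change of -0.71 (limma adjusted p = 0.0118), and HACD3, a dehydratase of elongation listed as PTPLAD1, one of -1.18 (limma adjusted p = 0.0132). These 3 were not called without shControl replicate 1 or 3 (0.0579 to 0.0698). ACSL5, a long-chain acyl-CoA synthetase, was higher at 35.3 ± 10.7 against 19.8 ± 1.64 FPKM (log2 fold change 0.76, limma adjusted p = 0.0472). That call was lost without any 1 of the samples except shZnf148 replicate 3.

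Of 15 tested genes of other cholesterol transport, storage and LXR response, NCEH1 was called lower, none was called higher and 2 passed lower (median -0.04). Of all rows 3.66% were called lower and 8.13% passed lower. NCEH1, a hydrolase of cholesteryl esters, was at 52.1 ± 3.75 FPKM in shControl and 30.5 ± 7.63 FPKM in shZnf148 samples (log2 fold change -0.78, limma adjusted p = 0.0402), and its call was lost without any 1 of the 6 samples. VLDLR, a lipoprotein receptor, named here after its values were seen, was at 16.5 ± 1.72 and 10.8 ± 1.58 FPKM (log2 fold change -0.58, limma adjusted p = 0.0343), and it did not pass without shControl replicate 1, 2 or 3 or shZnf148 replicate 1 (0.0626 to 0.122).

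**Figure D4:**
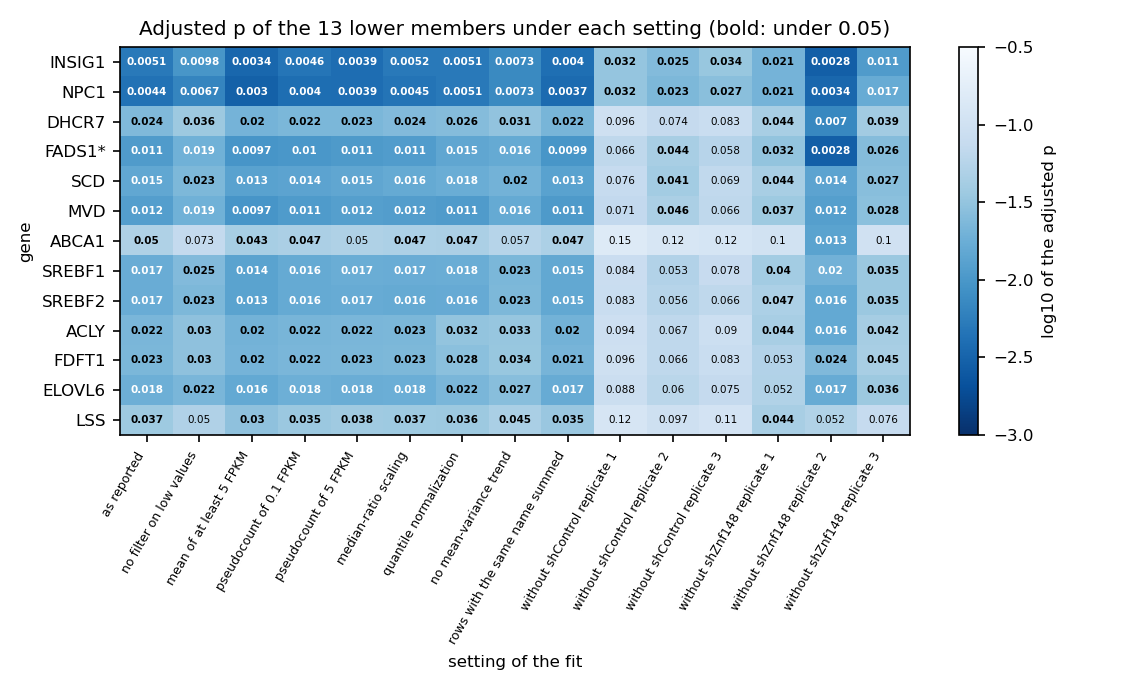
Adjusted p from limma of the 13 members that passed lower (y axis) under each setting of the fit except the replicate block (x axis). It is printed in each cell, with shade for its log10 and bold type under 0.05. INSIG1 and NPC1 are under 0.05 in every column shown, and the columns without shControl replicates 1 and 3 hold no other gene under 0.05.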

How the data were processed

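FPKM per gene row were computed by the authors and deposited as 1 table that covers the 6 libraries, with 0 columns unused here. The submitters' processing notes name bcl2fastq 2.17.1.14, TopHat2 2.0.14, Cufflinks 2.2.1 and Cuffnorm 2.2.1 and the builds hg18 and hg19, while the methods of the paper name Salmon, GRCh38 and DESeq2 for the authors' own analysis. Which of these made the FPKM values, and with which annotation, is not given in the sources used here, and the scaling between samples used for them can shift all fold changes alike. FPKM carry no read counts, so no count test was run. The precision of low values is unknown.

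Samples were grouped by their titles. Rows that averaged 1 FPKM or more were fitted as log2(FPKM + 1) with limma 3.58.1 in R 4.3.3 (group as the only term, eBayes with a mean-variance trend, Benjamini-Hochberg adjustment over 11777 rows). Calls needed an adjusted p under 0.05 and more than 1.5-fold. Of the tested rows, 173 held a 0 in at least 1 sample. A total of 733 rows of the table joined several symbols, and such a row was kept whole. Named genes were all 36 members, ZNF148, the called genes of the further lists, and where a list had none the 2 with the smallest p. A further list of sterol and isoprenoid enzymes is not reported here. Genes overlapping the exons of members were added as checks. Members and lists were chosen with earlier results of these data known. Alternatives covered the filter, the pseudocount, scaling, the variance model, a replicate term, summed rows and leaving out each sample. The fit was tested on simulated data. Loci came from GENCODE 44 (GRCh38) and start regions from RefSeq (GRCh38.p14). Loci, motifs and plots were handled in Python 3.11.15 (pandas 2.3.3, matplotlib 3.10.9).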

Additional observations from a re-analysis of the deposited data

How the results depend on the processing

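The 5 members called lower numbered 5 or 6 and the 13 that passed lower numbered 11 to 14 under each of the filters, pseudocounts, scalings, variance models and row sums tried, and no member passed higher under any setting. Whether numbers shared by shControl and shZnf148 replicates pair the samples is unknown. Departures from the group mean correlated little between equal numbers across rows (0.001, -0.088 and 0.03), which cannot exclude a shared culture or batch. The row of ERBB2 and MIR4728 was high in replicate 2 of both groups. With the replicate number as a block, 4 members were called (DHCR7 was not) and 6 passed lower (13 without it), those that no longer passed being DHCR7, FDFT1, LSS, ACLY, ELOVL6, SREBF1 and ABCA1, while 271 rows of the table passed lower in place of 957. With each sample left out in turn, 2 to 6 members were called lower and 2 to 13 passed lower. Across these fits some small changes that had not passed changed sign. Their ranges were -0.025 to 0.118 for MVK, -0.0484 to 0.168 for PMVK, -0.0235 to 0.125 for FDPS, -0.0229 to 0.144 for SQLE, -0.158 to 0.0286 for CYP51A1, -0.0747 to 0.0349 for NSDHL, -0.184 to 0.116 for HSD17B7 and -0.223 to 0.0228 for MYLIP. No scaling moved the median log2 fold change of all rows beyond 0.0217. Over all rows, 204 were called lower with a pseudocount of 5 FPKM and 216 with the block, in place of 431. Read numbers are unknown, so counting error could not be set beside the spread of 3 samples.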

Other observations

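Genes of fatty acid oxidation, which burns what the synthesis genes make, were listed separately. Of 18 tested fatty acid oxidation genes, 12 had a log2 fold change above 0 and 2 were called higher, with a median of 0.14. Of all 11777 rows, 5992 had a change above 0 and 1.83% were called higher. None was called lower, and at an unadjusted limma p under 0.05 there were 8 higher and 1 lower. Over all rows these numbers were 1883 and 2098. SLC25A20, the carnitine and acylcarnitine carrier of mitochondria, was at 3.12, 2.74 and 2.78 FPKM in shControl and 4.59, 8.38 and 5.11 FPKM in shZnf148 samples (log2 fold change 0.82, limma adjusted p = 0.0424). ACAA2, the thiolase of the last step, was at 16.9, 15.3 and 14.7 FPKM and at 21.9, 31.1 and 21.9 FPKM (log2 fold change 0.62, limma adjusted p = 0.0391). In both genes shZnf148 replicate 2 was the highest sample and the groups did not overlap. Neither was called without shControl replicate 1, 2 or 3 or shZnf148 replicate 1, where adjusted p-values were 0.0572 to 0.124. SLC25A20 also lost its call without shZnf148 replicate 3 (0.062) and ACAA2 without shZnf148 replicate 2, where it passed but changed by less than 1.5-fold (0.46). The difference between the oxidation and synthesis lists was not tested.

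Of 10 tested glycerolipid and lipid droplet genes, 1 was called lower and none higher (median -0.02), against 3.66% and 1.83% of all rows. MGLL, which splits monoacylglycerol, was at 19.5, 21.96 and 20.2 FPKM in shControl and 12.2, 10.6 and 13.1 FPKM in shZnf148 samples, groups that lay apart (log2 fold change -0.74, limma adjusted p = 0.0118). It was not called without shControl replicate 1 (0.0661) or 3 (0.0617).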
